A study of Caenorhabditis elegans with 16 samples.

Results

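Of 269057 GATC fragments of the *C. elegans* genome, 1079 (0.401%) were scored as occupied by RPB-6 in the hypodermis at both larval stages and not in the seam cells at either. RPB-6 is a subunit shared by all nuclear RNA polymerases. They were chosen by their scores. A member had a group score of at least 1 in the hypodermis at L4 and L2, and of at most 0.25 in the seam cells at L4 and L2. The score of a fragment is a normalised log2(*dam:rpb-6/dam:NLS-GFP*). In a single profile, a score of 1 thus means a normalised signal 2 times as large with the polymerase fusion as with the control. Group scores were the authors' averaged profiles, except in seam cells at L4, where the mean of replicate 1 over control 2 and replicate 2 over control 1 was used. The members made up 7.07% of the 15265 fragments that scored at least 1 in the hypodermis at both stages. Another 5386 of those fragments scored at least 1 in all 4 groups, and the mirrored rule, with the cell types exchanged, gave 341 fragments.

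RPB-6 occupancy was assayed by TaDa in whole animals carrying a Dam fusion as a single-copy insertion. Hypodermal profiles came from strain MBA688, with *dam:rpb-6* driven by the synthetic promoter *dpy-7syn1*, over strain MBA693, with *dam:NLS-GFP* under the same promoter. Seam cell profiles came from strain MBA698, with *dam:rpb-6* driven by the intronic element *srf-3i1*, over strain MBA692, with *dam:NLS-GFP* under that element. Each strain was grown on bacteria without Dam or Dcm methylase at 20 °C and sampled in 2 replicates at L4, 48 h after seeding, and at L2, 24 h after seeding, which gives 8 *dam:rpb-6* and 8 *dam:NLS-GFP* samples. Each cell type is thus defined by the activity of 1 promoter, and methylation laid down before L4 can still be present at L4. Read counts do not accompany the deposited scores. The depth of each sample is not given in the sources used here, and scores are printed without a counting error.

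The hypodermis is the large, mostly syncytial epidermis that covers the worm, secretes collagens for the cuticle and stores and metabolises fat and amino acids. The seam cells are rows of epidermal cells along its sides that divide asymmetrically in a stem cell-like manner and give daughters to the hypodermis at each moult. In TaDa, Dam methylates the adenine of GATC sites close to where the fused polymerase subunit travels, and the methylated fragments between neighbouring GATC sites are amplified and sequenced. High scores are therefore read along transcribed genes rather than only at their promoters. A fragment with little signal in both fusions has a score near 0, which is not the same as a measured lack of polymerase.

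The fragments below show what was scored. For genes that held many members, and for intergenic positions with high scores, each entry gives the member with the highest hypodermal score among those of at least 40 bp, and at most 300 bp with their sites, that contain no annotated UTR. The capitals mark the GATC sites at which the fragment ends, and the letters between them are the scored stretch, read 5′ to 3′ on the forward strand of WBcel235.
*ugt-10*, chrV:4898665-4898937, wholly coding: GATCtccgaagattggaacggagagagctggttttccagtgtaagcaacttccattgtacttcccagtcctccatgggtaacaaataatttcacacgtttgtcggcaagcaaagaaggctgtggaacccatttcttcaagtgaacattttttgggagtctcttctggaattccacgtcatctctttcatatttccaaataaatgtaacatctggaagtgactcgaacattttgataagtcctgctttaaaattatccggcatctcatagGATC
*col-121*, chrIV:9395458-9395729, wholly coding: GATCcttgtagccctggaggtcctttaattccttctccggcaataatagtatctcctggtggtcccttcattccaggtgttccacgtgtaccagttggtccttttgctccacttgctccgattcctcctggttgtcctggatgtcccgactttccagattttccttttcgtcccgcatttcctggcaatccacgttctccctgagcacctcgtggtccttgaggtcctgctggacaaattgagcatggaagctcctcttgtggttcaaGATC
*nas-11*, chrX:6715426-6715520, wholly coding: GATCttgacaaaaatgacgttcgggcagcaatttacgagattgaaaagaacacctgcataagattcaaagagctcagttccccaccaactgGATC
*semo-1*, chrIV:14052403-14052463, intron but for 1 base: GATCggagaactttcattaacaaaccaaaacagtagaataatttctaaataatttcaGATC
*K01D12.10*, chrV:12406100-12406387, across the annotated start of the gene: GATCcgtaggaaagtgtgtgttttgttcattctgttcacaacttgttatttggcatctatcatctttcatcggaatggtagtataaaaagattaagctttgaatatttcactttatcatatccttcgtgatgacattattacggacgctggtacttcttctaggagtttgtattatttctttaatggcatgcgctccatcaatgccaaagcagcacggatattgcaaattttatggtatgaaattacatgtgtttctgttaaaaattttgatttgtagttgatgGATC
intergenic, between *ZK892.5* and *lec-2*, chrII:10009459-10009534: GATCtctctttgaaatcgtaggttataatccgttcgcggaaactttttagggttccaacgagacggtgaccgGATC
intergenic, past the end of *cima-1*, chrIV:7654323-7654610: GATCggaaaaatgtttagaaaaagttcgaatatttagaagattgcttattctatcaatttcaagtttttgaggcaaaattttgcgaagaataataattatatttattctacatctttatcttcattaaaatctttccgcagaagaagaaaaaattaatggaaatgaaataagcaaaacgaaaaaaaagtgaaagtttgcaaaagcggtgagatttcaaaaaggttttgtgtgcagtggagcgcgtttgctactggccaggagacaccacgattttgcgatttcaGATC
intergenic, over 1 end of the *mir-80* hairpin, chrIII:8865072-8865282: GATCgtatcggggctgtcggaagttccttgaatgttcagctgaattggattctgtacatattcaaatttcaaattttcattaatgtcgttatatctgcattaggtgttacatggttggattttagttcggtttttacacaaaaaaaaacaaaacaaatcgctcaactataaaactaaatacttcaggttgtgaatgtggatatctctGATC

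In the scored *ugt-10* fragment, the hypodermal profiles read 1.02 and 3.64 at L4 and 3.04 and 2.56 at L2 (replicates 1 and 2), against -0.11 and -0.01 at L4 and -0.44 and 0.00 at L2 in seam cells. The collagen fragment of *col-121* read 1.9 and 2.06 at L4 and 2.67 and 1.86 at L2 in hypodermis, against scores listed at 0 in both L4 replicates and 0.07 and 0.03 at L2 in seam cells. In neither fragment did the cell types overlap, a contrast that the rule had used. The intergenic fragment next to *lec-2*, which encodes a galectin, read 2.05 and 2.27 at L4 and 2.83 and 2.31 at L2 in hypodermis. Its seam cell values were -0.49 and 0.62 at L4 and -1.84 and 1.32 at L2, so the seam cell score near 0 was the mean of replicates that differed widely.

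The seam cell side of the rule was the less reproducible one. Across all fragments, which are not independent replicates, the replicates correlated with r = 0.662 at L4 and 0.660 at L2 in hypodermis, against 0.531 at L4 and 0.238 at L2 in seam cells. Over the members, the median score was 1.48 and 1.39 at L4 and 1.83 and 1.67 at L2 in hypodermis, against 0 in both replicates at L4 and -0.01 and 0.03 at L2 in seam cells. For comparison, the fragments at 1 or more in all 4 groups had medians of 2.52 and 2.10 at L4 and 2.79 and 2.51 at L2 in hypodermis, so the members sat lower than fragments occupied in both cell types. Between 72.0% and 86.3% of members reached 1 in a given hypodermal replicate, and between 70.0% and 92.8% stayed at or below 0.25 in a given seam cell replicate.

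**Figure D1:**
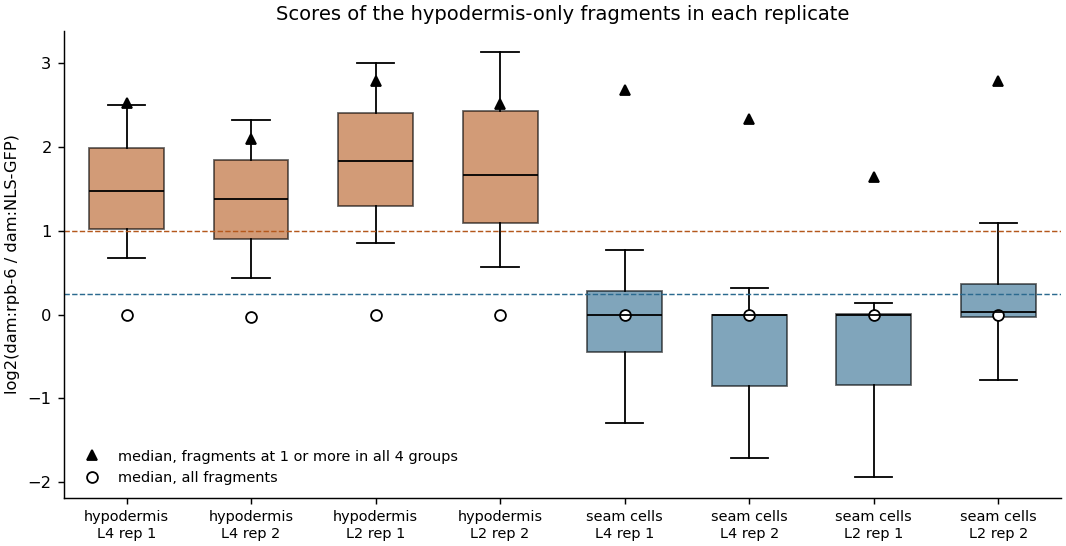
Scores of the 1079 members in each of the 8 *dam:rpb-6* profiles (vertical axis, log2 ratio). Boxes span the quartiles, whiskers the 10th to the 90th percentile, triangles give the median of the 5386 fragments at 1 or more in all groups, circles the median of all fragments, and dashed lines the limits of 1 and 0.25. Hypodermal medians lie between 1.39 and 1.83, and the highest seam cell whisker is that of L2 replicate 2, at 1.09.

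All 4 hypodermal replicates lay above all 4 seam cell replicates in 735 members (68.1%), against 1.88% of all fragments. The rule used this contrast, so the share only describes the members. The same holds wherever the separation of replicates is given for single members, runs or the members of a gene. All 4 hypodermal replicates were at 1 or more in 379 members, all 4 seam cell replicates were at 0.25 or less in 450, and 197 members reached 1 in some seam cell replicate. A score listed at exactly 0 occurred in at least 1 seam cell replicate of 449 members and in all 4 seam cell replicates of 23, whereas 3 members had such a score in a hypodermal replicate. Of the members, 592 had no score of exactly 0 in any seam cell profile that entered the group scores.

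Members differed in how far they passed the limits. Just inside the limits lay 246 members whose lower hypodermal score was under 1.1 and 232 whose higher seam cell score was above 0.15. Just outside lay 291 fragments within the seam cell limit at 0.9 to 1 in the hypodermis, and 242 within the hypodermal limit at 0.25 to 0.35 in seam cells. The scores nearest the limits were 1.000 for the hypodermis and 0.2496 for seam cells among members, and 0.9993 and 0.2501 among fragments that missed. At the other end, 102 members scored at least 2 at both hypodermal stages and 14 at least 3.

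These 14 were singled out after their values were seen. The one with the highest score at its lower stage lay in *acs-13*, one of the fatty acyl-CoA synthetase genes, and read 3.61 and 4.09 at L4 and 4.18 and 3.64 at L2 in hypodermis, against -1.98 and 0 at L4 and 0.14 and -0.06 at L2 in seam cells. A fragment of *F41C3.2* read 3.74 and 2.82 at L4 and 5.29 and 5.55 at L2 in hypodermis, against 0.43 and -0.60 at L4 and 0.21 and 0.16 at L2 in seam cells. Of the 14, 3 adjacent fragments lay in *acs-13* and 2 in *F41C3.2*. One of *skpo-2*, which encodes a peroxidase, read 2.52 and 3.59 at L4 and 3.45 and 3.04 at L2 in hypodermis, against 0 and -0.02 at L4 and 0.07 and 0 at L2 in seam cells. One of *osm-7*, which encodes a secreted protein of the osmotic stress response of the hypodermis, read 3.03 and 3.55 at L4 and 2.36 and 3.64 at L2, against 0.23 and 0 at L4 and 0 and 0.54 at L2 in seam cells. In *F31F7.1*, by contrast, a hypodermal score of 2.89 and 3.48 at L4 and 4.87 and 4.80 at L2 stood against -0.14 and 0 at L4 and 3.19 and -2.69 at L2 in seam cells, where the replicates overlap the hypodermal range.

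The same measure was also read in the replicate that the choice had not used. With the rule applied to replicate 1 of each group, 2128 fragments passed, and 159 of these (7.47%, exact 95% binomial interval 6.39% to 8.67%) also passed in replicate 2, against 0.52% of all fragments. With the rule applied to replicate 2, 1398 passed, and the same 159 were 11.4% of them, against 0.791% of all fragments passing in replicate 1. All 159 were among the 1079 members. Group scores average the replicates, so a fragment that passes in both is all but bound to be a member. The hypodermis scored higher than seam cells at both stages in the unused replicate for 866 of the 2128 (40.7%, against 14.9% of all fragments) and for 773 of the 1398 (55.3%, against 21.8%). Neighbouring fragments can share reads, so these intervals cover counting error only and treat fragments as independent.

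In the unused replicate the median remained higher in hypodermis at each stage. Among the 2128 fragments chosen in replicate 1, the medians in replicate 2 were 0.66 at L4 and 1.18 at L2 in hypodermis, against 0 at L4 and 0.38 at L2 in seam cells. Among the 1398 chosen in replicate 2, the medians in replicate 1 were 1.02 at L4 and 1.56 at L2 in hypodermis, against 0.47 at L4 and 0 at L2 in seam cells. The median difference between the cell types in the unused replicate was 0.43 in the first case and 0.86 in the second, against -0.01 and 0 over all fragments. With group scores taken from 1 replicate over both controls, or over the 1 control used for it in seam cells at L4, 1433 fragments met the rule without replicate 1, of which 463 were members, and 2434 without replicate 2, of which 577 were members.

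**Figure D2:**
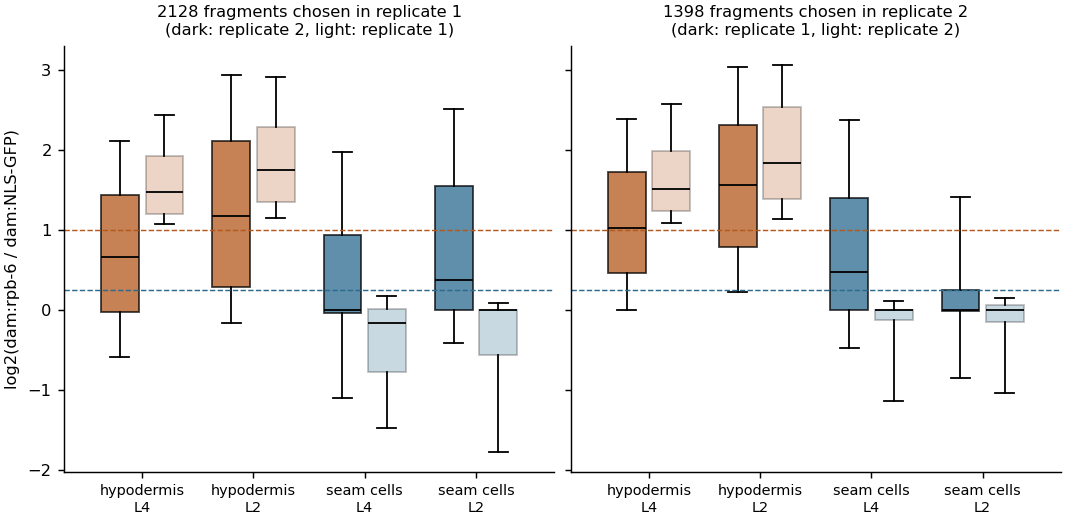
Scores of fragments chosen in 1 replicate (light boxes) and read in the other (dark boxes), for 2128 fragments chosen in replicate 1 and 1398 chosen in replicate 2. Boxes span the quartiles of the log2 score, whiskers the 10th to the 90th percentile, and dashed lines mark 1 and 0.25. The unused replicate keeps the hypodermis above seam cells in its medians, at 0.66 and 1.18 against 0 and 0.38 on the left.

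The members were scattered over the genome in short runs. They formed 720 runs of adjacent members, of which 480 were single fragments, 156 held 2, 58 held 3, 18 held 4, 7 held 5 and 1 held 6. The 240 runs of 2 or more contained 55.5% of the members and had a median length of 377 bp. Among fragments occupied in all 4 groups, 84.1% lay in runs of 2 or more and the longest run had 21 fragments. Members in runs of 3 or more had a median hypodermal score of 1.80, against 1.48 for single members, and their replicates separated in 77.0% and 62.3% of cases. Adjacent fragments are read from overlapping DNA and are not independent of each other.

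Of 1425 fragments next to a run, 749 (52.6%) missed the hypodermal limit alone, 404 (28.4%) missed the seam cell limit alone and 272 (19.1%) missed both. Over all fragments, these shares were 69.9%, 5.27% and 24.5%. Their median scores were 0.84 at L4 and 1.06 at L2 in hypodermis, against 0.01 at L4 and 0.02 at L2 in seam cells. Of them, 24 (1.68%) were at 1 or more in all 4 groups, against 2.00% of all fragments. The median fragment next to a run was thus still raised in the hypodermis, at a level below that of the members, and near 0 in seam cells. The seam cell limit was nevertheless exceeded by 676 of the 1425 (47.4%), against 29.7% of all fragments.

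The longest run, at chrV:4897856-4899048, held 6 fragments over *ugt-10* and, at its edge, *ugt-9*, which encode UDP-glycosyltransferases, enzymes that attach sugars to small molecules. Its mean score was 0.58 and 2.87 at L4 and 2.07 and 2.67 at L2 in hypodermis, against -0.11 and -0.01 at L4 and -0.33 and 0.01 at L2 in seam cells. Every hypodermal value was above every seam cell value, although hypodermal replicate 1 at L4 lay closer to the seam cells than to replicate 2. The neighbour *ugt-11* held 4 more members, and the 3 adjacent genes shared 10 members in all. Of the 67 genes of this family, a list chosen after the members had been seen, 8 were hit (11.9%), against 3.12% of all protein-coding genes. These shares were not adjusted for the number of fragments in a gene.

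Runs of 5 were found in *semo-1*, *K01D12.10*, *Y92H12A.2*, *acs-13*, and at 3 places where 2 genes overlap or adjoin. In *semo-1*, which encodes a selenium-binding protein that oxidises methanethiol, the run at chrIV:14052405-14053153 covered 72.2% coding sequence and 27.8% intron. It read 1.5 and 1.70 at L4 and 1.54 and 2.37 at L2 in hypodermis, against 0.01 and 0 at L4 and -0.28 and -0.12 at L2 in seam cells. The seam cell replicates thus stayed close to 0 and the lowest hypodermal one was 1.5. The *acs-13* run at chrI:513542-513916 read 2.3 and 3.20 at L4 and 2.66 and 2.60 at L2 in hypodermis, against -0.99 and 0.14 at L4 and 0.06 and 0.02 at L2 in seam cells.

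Other long runs rested on seam cell replicates that disagreed. The run at chrIII:11498952-11499394, where the gene of the mitochondrial asparaginyl-tRNA synthetase *nars-2* overlaps *Y66D12A.24* on the other strand, read 1.11 and 1.53 at L4 and 0.95 and 2.40 at L2 in hypodermis. In seam cells it read -0.14 and -1.80 at L4 and -3.38 and 2.15 at L2, a range that contains most of the hypodermal values. The run in *K01D12.10* at chrV:12406039-12406889 likewise read 1.78 and 1.25 at L4 and 2.69 and 3.40 at L2 in hypodermis, against -1.51 and -0.33 at L4 and -1.84 and 1.81 at L2 in seam cells. In the remaining runs of 5, in *Y92H12A.2*, across *twk-34* and *Y6E2A.1* and across *R08E5.4* and *R08E5.1*, the highest seam cell replicate was 0.63 and the lowest hypodermal one 0.89. DamID has no strand, so a fragment over 2 genes counts for both, which applied to 69 members.

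**Figure D3:**
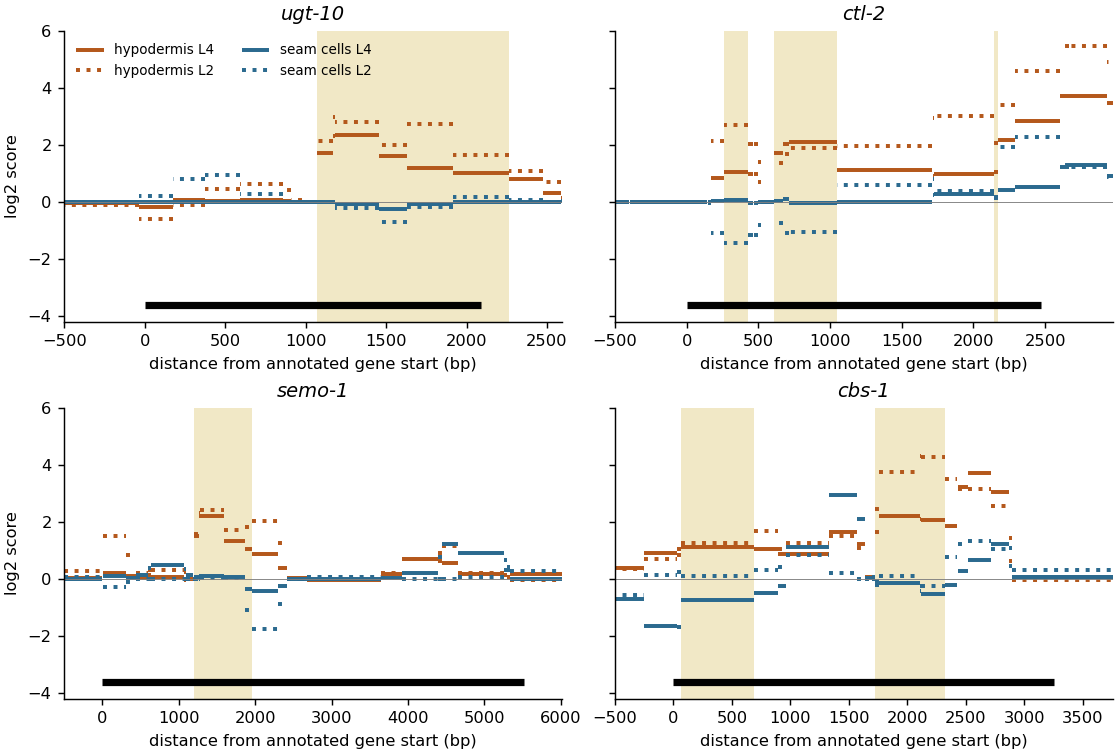
Group scores (vertical axis, log2 ratio) of the fragments along *ugt-10*, *ctl-2*, *semo-1* and *cbs-1* against the distance in bp from the annotated gene start. Solid lines are L4 and dotted lines L2, hypodermis in orange and seam cells in blue, shaded spans are members, and the black bar is the annotated gene. In *semo-1* the members form 1 run of 5. The midpoints of the 5 members of *cbs-1* lie at 12% and at 53% to 68% of the gene, and those of *ctl-2* at 14% to 87%.

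Protein-coding genes were overlapped by 986 members (91.4%), against 74.0% of all fragments and 91.9% of those occupied in the hypodermis. The 624 genes hit were 3.12% of the 19983 that overlap a fragment. Of the member bases, 49.0% were coding and 31.4% intronic, against 24.6% and 33.1% over all fragments. When genes were divided into 3 equal parts, the midpoints of members within a single gene fell into the last part in 41.9% of cases and into the first in 24.4%, against 39.2% and 23.9% for all fragments occupied in the hypodermis and 34.1% and 30.6% for all fragments. The members were thus placed within genes much like other hypodermal fragments. The density on the nuclear chromosomes was 0.358% to 0.46% of fragments, with 236 members on chromosome V and 206 on II. As a share of the fragments occupied in the hypodermis, members ran from 5.5% on chromosome I to 8.95% on V. None lay on the mitochondrial genome, which has only 22 fragments.

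Most genes hit did not meet the rule as a whole. A single member was found in 369 of the 624 genes, 255 held 2 or more, 44 held 4 or more, and the median gene had 10.0% of its fragments among the members. The rule applied to the mean over the whole gene was met by 32 of the 19983 genes, 28 of them among the 624. The mean of a gene hit includes its members, so this overlap is not independent of the choice. Another fragment at 1 or more in all 4 groups was found in 162 of the 624, and the share over all genes was not counted. The other fragments of a gene nevertheless leaned the same way. Their median mean score was 0.48 at L4 and 0.68 at L2 in hypodermis, against 0.19 at L4 and 0.15 at L2 in seam cells, and it was higher in hypodermis at both stages in 473 genes (75.8%). Over all genes, the mean of every fragment was higher in hypodermis at both stages in 24.1%. Members and other fragments of a gene lie next to each other, so this share is not independent of the choice.

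The gene with most members was *mig-6*, which encodes the extracellular matrix protein papilin. Its 7 members of 53 fragments read 1.62 and 1.06 at L4 and 1.70 and 1.79 at L2 in hypodermis, against -0.97 and -0.76 at L4 and -0.96 and 0.22 at L2 in seam cells. Of the 7, 4 also lie over smaller genes within it, and its mean over all fragments was 0.08 at L4 and 0.14 at L2 in hypodermis, against -0.30 at L4 and 0.14 at L2 in seam cells. As a whole *mig-6* was thus near background in both cell types. There were 6 members each in *ugt-10*, *ugt-66*, *nas-11*, *lgc-45*, *Y92H12A.2* and *unc-44*. The last of these, the ankyrin gene, has 156 fragments, 23 further ones of which were occupied in the hypodermis.

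Several genes with 4 or more members encode metabolic enzymes, and those described next were picked for this after the members had been seen. The 5 members of *cbs-1*, which encodes cystathionine beta-synthase of the transsulphuration pathway, read 2.28 and 1.22 at L4 and 2.99 and 3.37 at L2 in hypodermis, against -0.50 and -0.30 at L4 and -0.94 and 1.09 at L2 in seam cells. Those of *ctl-2*, the peroxisomal catalase, read 1.66 and 1.39 at L4 and 2.07 and 1.75 at L2 in hypodermis, against 0.00 and 0.12 at L4 and -0.48 and -1.07 at L2 in seam cells. Of these 5 members, 2 have an end that occurs up to 3 times in the genome, and since *ctl-2* lies beside closely related catalase genes their scores are uncertain. Those of *haly-1*, histidine ammonia-lyase, read 1.87 and 0.71 at L4 and 2.24 and 2.36 at L2 in hypodermis, against -1.03 and 0.09 at L4 and -0.01 and 0.10 at L2 in seam cells.

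The glycine decarboxylase gene *gldc-1* held 4 members with 2.32 and 0.77 at L4 and 2.14 and 1.99 at L2 in hypodermis, against -0.63 and -0.73 at L4 and -0.56 and -0.12 at L2 in seam cells. In *odc-1*, ornithine decarboxylase of polyamine synthesis, 4 members read 2.95 and 2.32 at L4 and 4.35 and 3.76 at L2 in hypodermis, against -0.35 and -1.66 at L4 and 0.11 and 0.58 at L2 in seam cells. In each of *ctl-2*, *haly-1*, *gldc-1* and *odc-1* the cell types did not overlap in these means, while in *cbs-1* the lowest hypodermal value was 1.22 and the highest seam cell value 1.09. The members were chosen by this contrast, so the separation only describes them. The whole-gene means of *ctl-2*, *haly-1*, *gldc-1* and *ugt-66*, which include the members, met the rule as well. Others that met it, picked for what they encode, were *adh-1*, an alcohol dehydrogenase gene, and *mxl-3*, which encodes a basic helix-loop-helix transcription factor.

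**Figure D4:**
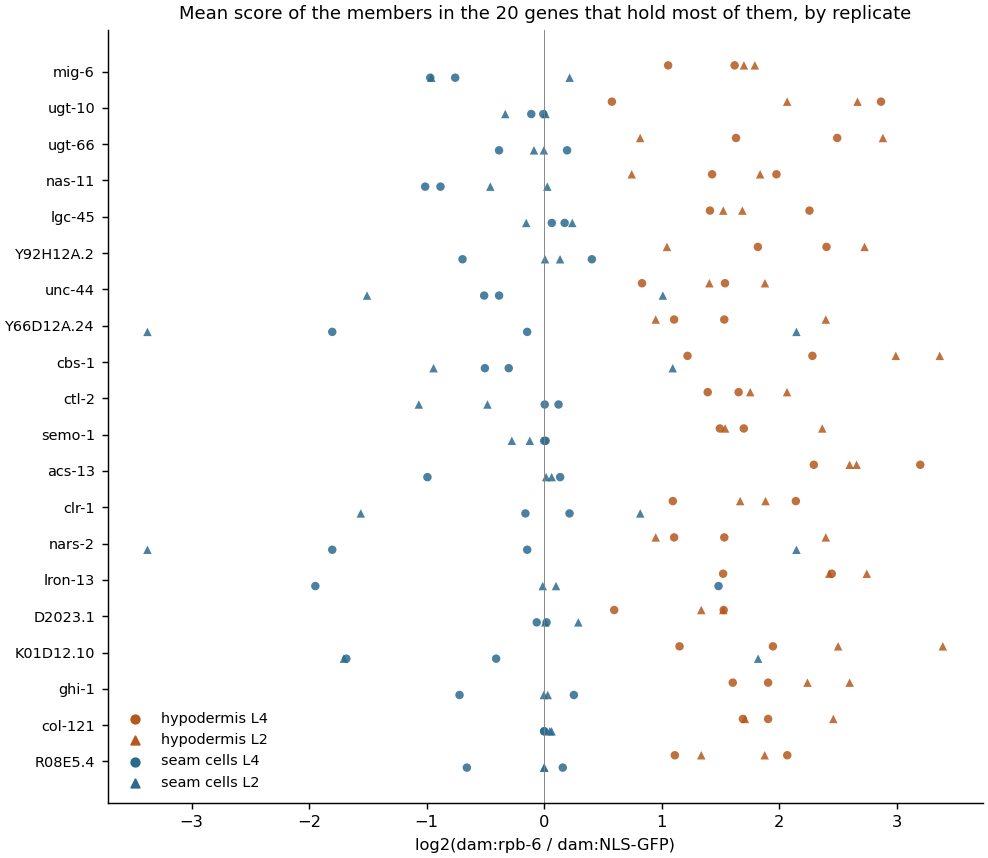
Mean score of the members in the 20 genes that hold most of them (horizontal axis, log2 ratio), with 1 point per replicate, orange for hypodermis and blue for seam cells, circles for L4 and triangles for L2. *semo-1*, *col-121* and *acs-13* show separate groups, whereas the seam cell points of *nars-2* and *Y66D12A.24* run over the range from -3.38 to 2.15.

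Genes hit were counted in lists of epidermal functions beside the 3.12% of all genes. A gene with more fragments can be hit more easily. Genes hit had a median of 14 fragments, against 7 over all protein-coding genes. The shares of the lists were not adjusted for this or for the level of hypodermal occupancy. Of 176 cuticle collagen genes, 8 were hit (4.55%), led by *col-121* and *col-151* with 4 members each and *col-128* and *col-149* with 2. The members of *col-151* read 1.26 and 1.76 at L4 and 1.49 and 0.59 at L2 in hypodermis, against 0.36 and 0 at L4 and 0 and -0.01 at L2 in seam cells. Over the whole collagen list, the median gene score at L4 was 1.24 in hypodermis and 0.86 in seam cells. In *col-149*, the mean over the whole gene at L4 was 2.59 in hypodermis and 2.44 in seam cells, so the pair of members stood in a gene occupied in both.

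Among 85 genes of the hedgehog-related and patched families, which encode secreted signals and multipass membrane proteins of the epidermis, 8 were hit (9.41%). The warthog gene *wrt-4* led with 3 members, which read 2.62 and 1.55 at L4 and 1.79 and 0.60 at L2 in hypodermis, against -0.82 and 0.27 at L4 and -0.06 and 0.29 at L2 in seam cells. *ptr-23* held 3 members as well, and *ptr-21* and the groundhog gene *grd-11* held 2 each. Of 44 cuticlin and precuticle genes 3 were hit, namely *cut-6*, *cutl-11* and *cut-2*. The *cut-6* members showed the cell types apart but the hypodermal replicates far from each other, with 0.75 and 2.21 at L4 and 3.80 and 1.52 at L2, against -0.01 and 0.17 at L4 and 0.16 and -0.36 at L2 in seam cells.

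Of 269 nuclear hormone receptor genes, which encode ligand-regulated transcription factors, 15 were hit (5.58%). The leading one, *nhr-14*, had 4 members of 12 fragments, with 2.10 and 1.47 at L4 and 2.51 and 2.41 at L2 in hypodermis, against 0.64 and -1.18 at L4 and -1.02 and -0.23 at L2 in seam cells. *nhr-105*, *nhr-153* and *nhr-42* held 2 each. No member lay in the 15 genes listed as hypodermal transcription factors, a list that also holds *daf-16*, *skn-1*, *hif-1* and *lin-39*. Their median gene score was 0.77 at L4 and 1.31 at L2 in hypodermis, against 0.99 at L4 and 0.46 at L2 in seam cells. With 3.12% of all protein-coding genes hit, the lack of a hit in so short a list says little. No member lay in the 29 epidermal antimicrobial peptide genes either.

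In the list for osmotic stress and epidermal damage, *osm-7* and *gpdh-2* were hit of 17 genes. The pair of *osm-7* members read 2.68 and 3.32 at L4 and 2.25 and 3.14 at L2 in hypodermis, against 0.11 and 0 at L4 and 0 and 0.26 at L2 in seam cells. These values did not overlap, a contrast that the rule had used. Of 6 phenylalanine and tyrosine catabolism genes 1 was hit, *hgo-1*, which encodes homogentisate oxidase, with 2 members. Of 23 fatty acid synthesis genes 3 were hit. They were *pod-2*, acetyl-CoA carboxylase, with 2 members of 120 fragments, the elongase *elo-3* and the desaturase *fat-4*.

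The junction and attachment list had 3 of 17 genes hit, *vab-19*, *mup-4* and *let-805*, which act at the fibrous organelles that anchor muscle to cuticle through the hypodermis. The member in *mup-4* was 1 of 46 fragments, and the gene as a whole scored 3.51 at L4 and 4.14 at L2 in hypodermis, against 2.17 at L4 and 1.31 at L2 in seam cells. Of 36 astacin genes, *nas-11* and *nas-9* were hit. The 6 members of *nas-11* read 1.98 and 1.43 at L4 and 0.74 and 1.84 at L2 in hypodermis, against -1.01 and -0.88 at L4 and -0.46 and 0.03 at L2 in seam cells. The collagen processing list had 2 of 10 genes hit, *tsp-15* and *mlt-7*, the moulting list 2 of 24, *nekl-3* and *mlt-7*, and the ribosomal protein list 2 of 76, *rpl-4* and *rpl-11.1*. These lists are short and were counted without a test.

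Markers set the label of the members in context. Of 14 hypodermal marker genes, 7 scored higher in hypodermis at both stages and none higher in seam cells at both, and 2 of them, *osm-7* and *wrt-8*, were hit. Several others were occupied in both cell types. The collagen gene *dpy-13* scored 6.56 at L4 and 6.16 at L2 in hypodermis, against 7.90 at L4 and 5.21 at L2 in seam cells, and *dpy-7*, from which the promoter was derived, 2.19 at L4 and 2.85 at L2, against 4.0 at L4 and 1.80 at L2. None of the 13 seam cell markers was hit, and 12 of them scored higher in seam cells at both stages. The seam cell limit of the rule keeps fragments with high seam cell scores out, so this lack of hits was largely set in advance. No gene on the lists for body wall muscle (14 genes), neurons (18) or intestine (13) was hit. Of all protein-coding genes 3.12% were hit, so the numbers of hits in marker lists this short say little, those of the hypodermal list included. Body wall muscle genes had median scores of -0.80 at L4 and -0.82 at L2 in hypodermis, against -0.40 at L4 and 0.39 at L2 in seam cells, and 13 of 14 scored higher in seam cells at both stages. Their part in the members was not tested. Neuronal and intestinal genes had medians between -0.16 and 0.09 in every group.

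Outside protein-coding genes lay 93 members (8.62%), against 26.0% of all fragments. Of these, 75 overlapped no annotated gene and 18 overlapped a non-coding RNA gene or pseudogene. The nearest protein-coding gene was at a median distance of 818 bp, within 500 bp for 35 and within 1000 bp for 53, and the greatest distance was 12886 bp. The member lay on the upstream side of that gene in 55 cases and on the downstream side in 38. The nearest gene was itself hit in 24 cases. Intergenic members separated in the replicates about as often as genic ones, in 69.9% and 68.0%.

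The longest of the intergenic runs with high scores held 3 fragments, at chrV:9078327-9079200, 2005 bp upstream of *T27E4.7*. The run read 2.06 and 1.81 at L4 and 2.85 and 2.73 at L2 in hypodermis, against 0.19 and -0.01 at L4 and -0.50 and -0.37 at L2 in seam cells, with close replicates in both. The fragment 30 bp past the end of *cima-1*, which encodes a solute carrier of the epidermis, read 1.37 and 2.13 at L4 and 1.95 and 3.90 at L2 in hypodermis, against -0.81 and 0 at L4 and 0.05 and -0.03 at L2 in seam cells. One at chrX:5713603-5714140, 382 bp upstream of the cytochrome P450 gene *cyp-43A1* and over a tRNA gene, read 1.65 and 2.12 at L4 and 3.40 and 1.89 at L2 in hypodermis. In seam cells it read 0.16 and 0 at L4 and 0.53 and -0.29 at L2.

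The run of 3 at chrX:499208-499504, 1698 bp downstream of *B0310.1*, read 3.26 and 0.34 at L4 and 3.87 and 1.94 at L2 in hypodermis, against -0.02 and -2.89 at L4 and 0.06 and -1.81 at L2 in seam cells. Replicate 1 was the higher one in all 4 groups there. The fragment 350 bp upstream of *spv-1*, which encodes a RhoGAP, read 1.78 and 1.54 at L4 and 1.96 and 2.61 at L2 in hypodermis, against 0.38 and 0 at L4 and -0.32 and 0.22 at L2 in seam cells. The remaining intergenic runs among the 8 with the highest hypodermal scores lay downstream of *ZK892.5*, *Y53F4B.27* and *F26G1.5*. None of the 8 had a nearest gene that was hit.

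**Figure D5:**
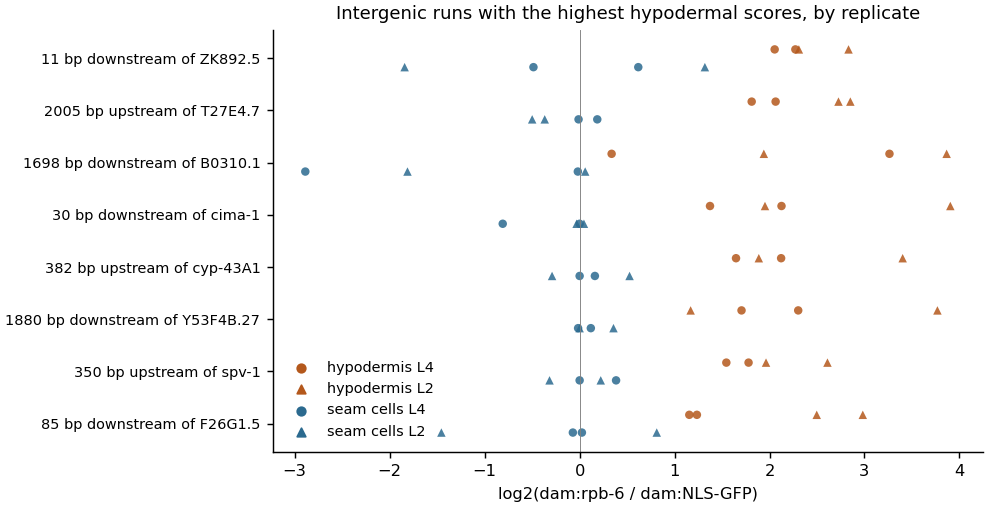
Mean score of the 8 intergenic runs with the highest hypodermal scores (horizontal axis, log2 ratio), named by their distance to the nearest protein-coding gene, with 1 point per replicate in the same colours and shapes for cell type and stage. Hypodermal points lie above 1 in every run except that near *B0310.1*, where 1 L4 replicate is at 0.34.

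One of 261 miRNA genes was touched by a member. The fragment at chrIII:8865074-8865280 covers the last bases of the *mir-80* hairpin, a miRNA of the bantam-related *mir-58* family, and reads 1.98 and 1.51 at L4 and 1.63 and 1.54 at L2 in hypodermis. In seam cells it read 1.18 and -0.99 at L4 and -2.21 and 2.10 at L2, so that the seam cell replicates reached above the hypodermal ones. Members also overlapped 25 genes annotated as ncRNA (0.322%), 18 piRNA genes (0.117%), 7 pseudogenes (0.329%), 3 tRNA genes (0.475%) and 3 antisense RNA genes (3% of 100), against 3.12% of protein-coding genes. Protein-coding genes overlap a median of 7 fragments, any of which can make them hit, and 0.401% of all fragments were members. The shares were not adjusted for the number of fragments per gene, so they do not compare the kinds of gene. No snRNA, snoRNA, lincRNA or rRNA gene was hit.

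Members had no unusual length or base content for hypodermal fragments. Their median length was 195 bp, against 210 bp for fragments occupied in the hypodermis and 209 bp for all, and 210 members (19.5%) were shorter than 50 bp. The median GC content was 39.9%, against 40.5% and 37.1%. At least 1 end of 31 bases occurred more than once in the genome in 54 members (5.74% of those long enough), against 11.1% of all fragments. The sequence TGATAA, or its reverse complement, was present in windows of 300 bp around the midpoints of 26.0% of members and 25.1% of all fragments, and AGATAG, read in the same way, of 9.27% and 7.73%. Both are words around GATA, and the same GATA cannot belong to both. In windows of 250 bp upstream to 50 bp downstream of annotated gene starts, TGATAA occurred in 33.8% of genes hit and 30.2% of all protein-coding genes, and AGATAG in 12.3% and 9.21%.

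The hypodermal scores at L4 and L2 were compared in limma to ask whether occupancy differs between the stages. The rule used no difference between the stages, but it set a lower limit on both scores, so the values of the members are conditioned by their choice and the counts below describe them. No member passed the threshold (limma, lmFit and eBayes on all 269057 fragments in 4 groups of 2 profiles, Benjamini-Hochberg adjusted p under 0.05), where 2 fragments (0.000743%) were called in all. At an unadjusted p under 0.05 there were 73 members (6.77%), 67 lower and 6 higher at L4, against 4.28% of all fragments. Without hypodermal replicate 1, limma called 26 members (2.41%), against 0.647% of all fragments, and without hypodermal replicate 2 25 (2.32%), against 0.846%, with the lone samples assumed to vary like the seam cell groups. With the replicate block, 0 members were called and 93 (8.62%) had an unadjusted p under 0.05, against 4.82% of all fragments. With each replicate averaged over both controls it called 22 members (2.04%), against 6.38% of all fragments, in profiles that share control samples and so differ less than independent ones.

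Most members nonetheless had the same direction. The score was lower at L4 than at L2 in 778 members (72.1%), against 65.7% of the fragments at 1 or more in all 4 groups and 50.3% of all fragments, with a median difference of -0.29 over the members and -0.34 and -0.38 in the individual replicates. The fragments at 1 or more in all 4 groups had a median difference of -0.32, close to that of the members. Without replicate 1 the share was 65.2% of members and 61.0% of all fragments, and without replicate 2 66.9% of members and 37.7% of all fragments. Over whole genes, 0 of 19983 passed the threshold, 0% of them all. Unadjusted, 876 (4.38%) had a p under 0.05, 89 of these among the 624 genes hit, with 85 lower at L4.

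The lowest p among genes hit belonged to *sqst-1*, which encodes an autophagy receptor, and the gene was named for that reason. It scored 0.44 and 0.63 at L4, against 1.70 and 1.73 at L2, a difference of -1.18 ± 0.10 (SE, n = 2 each, adjusted p = 0.248 in limma). *odc-1* followed with 1.56 and 1.37 at L4, against 3.75 and 3.15 at L2, a difference of -1.99 ± 0.24 (SE, n = 2 each, adjusted p = 0.413 in limma). In neither gene did the stages overlap, and neither passed the threshold over all genes.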

How the data were processed

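Amplified GATC-methylated DNA of 16 samples was sequenced. The submitters' processing notes name WBcel235, Bowtie2 2.3.4 and SAMtools 1.9. With damidseq_pipeline, the authors turned reads into normalised log2 scores, 1 per fragment, of the polymerase fusion over the control, and deposited 16 pairwise and 4 averaged profiles. Their lists of expressed genes, with mean scores and false discovery rates, were not used. The depth of each sample is not given in the sources used here. Exact zeros made up 14.0% to 44.6% of a pairwise profile.

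Replicate values are the profiles of replicate 1 over control 1 and replicate 2 over control 2. In seam cells at L4 the controls were exchanged, because replicate 1 over control 1 followed the ratio of the controls (r = 0.996) and not replicate 1 over control 2 (r = -0.348). Replicates number 2 per group and are labelled as biological replicates.

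Genes and non-coding RNAs came from the Ensembl annotation of WBcel235, and sequences from the RefSeq copy of that assembly. All fragment ends lay in GATC sites of this assembly. Overlap with a gene meant at least 1 base. Analyses used Python 3.11.15, numpy 2.4.6, pandas 2.3.3, scipy 1.17.1, R 4.3.3 and limma 3.58.1, and limma was tested on simulated data.

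Members and lists were chosen with earlier results of these data known. The genes named are the 20 with most members, those under the 10 longest runs, the nearest to the 8 intergenic runs with the highest hypodermal scores, miRNA genes overlapped and up to 4 per gene list by number of members. The replicate number pairs L4 with L2 samples within a promoter, because each population was divided between the stages. Replicate differences at L4 and L2 correlated with r = 0.0878 over fragments in hypodermis and -0.0405 in seam cells. Alternatives covered the limits, the profiles, zeros, fragment length, scaling, each replicate, the overlap with genes, the replicate block and the window for motifs. Leaving out repeated fragment ends, and fragments with a score of 0 in limma, was added after seeing the data.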

Additional observations from a re-analysis of the deposited data

Results flagged for a closer look

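The seam cell L4 profile of replicate 1 over control 1 was left out of the group score used to choose the members, and 285 members (26.4%) scored at least 1 in it, against 10.0% of all fragments. It is listed here because the main comparison did not use its values. This profile followed the ratio of the controls (r = 0.996) and not replicate 1 over control 2 (r = -0.348). Its scores therefore cannot be read as RPB-6 occupancy in seam cells. Its median over the members was 0.12, and replicate 2 over control 2, the other unused profile of that group, had a median of -0.37 and 10 members at 1 or more. With both included, as in the deposited average, 1303 fragments met the rule and 1042 of the 1079 members were kept.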

How the results depend on the processing

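Counts followed the limits of the rule. With a hypodermal limit of 0.75 there were 1966 members, 448 runs of 2 or more and 1045 genes hit, and with 1.5 there were 338 members, 74 runs and 230 genes, with 5.33% of members outside genes. A seam cell limit of 0 gave 444 members, 100 runs and 268 genes, and one of 0.5 gave 1784 members and 400 runs. Fragments with no seam cell score of 0 gave 592 members, 116 runs and 394 genes, and those of at least 200 bp gave 532 members and 33 runs. Centring and scaling of the groups, the deposited seam cell L4 average and fragments whose ends occur once kept each of these counts within 1.5 times.

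Leaving out replicate 1 or replicate 2 gave 1433 and 2434 members, 356 and 566 runs, 790 and 1265 genes hit, and 10.8% and 9.57% outside genes. Outside any annotated gene lay 6.95% of members (19.5% of all fragments), and outside genes extended by 500 bp 5.38% (18.8%). Of fragments chosen in 1 replicate, 11.4% passed in the other when replicate 2 was used to choose, and 4.82% and 18.1% with the same-numbered seam cell L4 controls, against 0.572% and 2.14% of all fragments. For the stage comparison, 22 members (2.04%, against 6.38% of all fragments) were called with both controls averaged. Leaving out hypodermal replicate 1 or 2 gave 26 (2.41%, against 0.647%) and 25 (2.32%, against 0.846%). With the replicate block, which pairs L4 and L2, 0 members were called, as with hypodermal groups alone, runs, genes and fragments with no score of 0. At an unadjusted p under 0.05, limma gave 93 members (8.62%) with the block, against 4.82% of all fragments. Of the 20 named genes, 15 held a member without replicate 1 and 19 without replicate 2. *Y66D12A.24*, *nars-2*, *clr-1*, *D2023.1* and *K01D12.10* held none without replicate 1, and *lron-13* none without replicate 2. Differences under the spread of 2 replicates could not be resolved, and without read counts no limit of detection can be given.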
